A study of Mus musculus with 9 samples.

Results

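Cholesterol synthesis and its control were followed through 28 genes in cultured mouse muscle fibres. The genes were picked by symbol for their known roles and are not the whole pathway. They are 8 enzymes of the early mevalonate steps, 10 enzymes of the late sterol steps, 4 regulators around the transcription factor SREBP2, the 2 liver X receptors (LXRs) and 4 sterol transport genes. They stand among 24063 gene symbols in the deposited count tables, and all 28 were among the 14006 genes that passed the filter on low counts. The fibres came from C2C12, an established wild-type mouse myoblast line whose cells fuse into multinucleated fibres when serum is low. The medium of all groups was DMEM with low fetal bovine serum, and RNA was taken at day 3. The 1C-MIM group (3 libraries) was given One-Carbon Metabolite Induced Medium, a mix of 6 metabolites from the one-carbon network. The scramble group (3 libraries) was given 6 metabolites from outside that network. The control group (3 libraries) stayed in normal medium. Neither mix is named by compound or dose in the labels. The labels are also silent on separate cultures, and the p-values therefore speak only for the spread between these libraries, some or all of which may be technical.

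Cells build cholesterol from acetyl-CoA. The early steps lead over mevalonate to the isoprenoid farnesyl diphosphate and to squalene, and the late steps close and trim the sterol ring. When membranes of the endoplasmic reticulum run low in sterol, SCAP carries SREBP2 to the Golgi, where it is cut and released to switch on the enzyme genes. When sterol is plentiful, the INSIG proteins hold the SCAP and SREBP2 complex back, and oxysterols activate the LXRs, which switch on genes of sterol export. Fusing myoblasts remodel large amounts of membrane, of which cholesterol is a main part.

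SREBP2 binds sterol regulatory elements and acts together with the factor NF-Y, which binds CCAAT boxes. The promoters of 4 genes are printed: Hmgcs1, Insig1 and Srebf2 because the results turn on them, and Mvk for its many CCAAT boxes. Each is the 250 bases before the transcription start (RefSeq, GRCm38.p6), written 5′ to 3′ on the gene's strand. Capitals mark matches to the sterol element core TCACNCCAC or to CCAAT, on either strand.
Hmgcs1 (chr13:119690101-119690350, + strand): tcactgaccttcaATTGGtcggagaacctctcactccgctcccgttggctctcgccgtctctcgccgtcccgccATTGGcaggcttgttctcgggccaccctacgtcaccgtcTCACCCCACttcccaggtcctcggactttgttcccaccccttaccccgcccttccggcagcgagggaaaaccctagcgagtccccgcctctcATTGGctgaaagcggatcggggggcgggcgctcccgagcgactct
Mvk (chr5:114444019-114444268, + strand): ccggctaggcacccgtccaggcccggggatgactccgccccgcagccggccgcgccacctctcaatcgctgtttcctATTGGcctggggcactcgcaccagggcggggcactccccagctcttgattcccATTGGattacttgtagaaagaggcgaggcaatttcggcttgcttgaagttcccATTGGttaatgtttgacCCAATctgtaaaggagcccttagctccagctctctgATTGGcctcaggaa
Insig1 (chr5:28071162-28071411, + strand): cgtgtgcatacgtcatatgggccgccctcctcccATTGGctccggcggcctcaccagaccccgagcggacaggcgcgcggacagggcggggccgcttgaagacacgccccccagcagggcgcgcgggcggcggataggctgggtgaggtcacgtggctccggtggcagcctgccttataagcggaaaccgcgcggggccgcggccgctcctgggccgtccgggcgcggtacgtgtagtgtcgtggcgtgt
Srebf2 (chr15:82147019-82147268, + strand): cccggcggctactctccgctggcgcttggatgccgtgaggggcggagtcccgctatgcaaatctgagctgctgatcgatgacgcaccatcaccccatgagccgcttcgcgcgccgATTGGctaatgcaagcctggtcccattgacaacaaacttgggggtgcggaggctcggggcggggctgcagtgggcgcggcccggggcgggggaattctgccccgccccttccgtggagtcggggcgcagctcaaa

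RefSeq windows from 250 bases before to 50 bases after the start were at hand for 22 of the 28 genes and for 27025 genes in all. The 27025 were not filtered by expression, unlike the 28, and a gene with several windows counted if any of them matched. The letters TCACNCCAC were present in 1 of the 22, the Hmgcs1 promoter, where the match begins 137 bases before the start, and in 1.44% of all genes. CCAAT was present in 17 of the 22 and in 41.1% of all genes, and the GC box GGGCGG, a site of the factor Sp1, in 19 of the 22 and in 38.2% of all genes. The DR4 element bound by LXRs was searched only as exact consensus half-sites in direct repeat. Such a match was in 0 of the 22 and in 0.0148% of all genes. With exact matches that rare, the 0 says nothing about DR4 elements that differ from the consensus, which were not searched. Matches of different motifs overlapped in 0 places in these windows. The differences in share were not tested. A match is a run of letters, and neither a match nor its lack says whether a factor binds.

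Per transcript length, the most abundant of the 28 mRNAs was Srebf2, which encodes SREBP2. Its deposited TPM, a unit scaled for transcript length and library total, averaged 119 ± 5.52 in 1C-MIM, 97.6 ± 4.25 in scramble and 90.9 ± 2.69 in control fibres (SD, n = 3 each). Fdps, whose product makes farnesyl diphosphate, came second in every group with 64.0 ± 7.76 TPM in 1C-MIM, 74.0 ± 2.24 TPM in scramble and 69.8 ± 0.212 TPM in control fibres. The lowest was Nr1h3, which encodes LXRα, at 1.94 ± 0.330 TPM in 1C-MIM, 1.05 ± 0.273 TPM in scramble and 0.832 ± 0.120 TPM in control fibres. Its relative Nr1h2, encoding LXRβ, stood at 48 ± 1.68, 45.4 ± 0.747 and 44.8 ± 2.14 TPM in 1C-MIM, scramble and control fibres, so LXRβ was the main LXR transcript in these cells. Of the INSIG pair, Insig2 averaged 51.7 TPM against 15.3 TPM for Insig1 in 1C-MIM fibres, and 51.5 TPM against 21.8 TPM in control fibres.

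**Figure D1:**
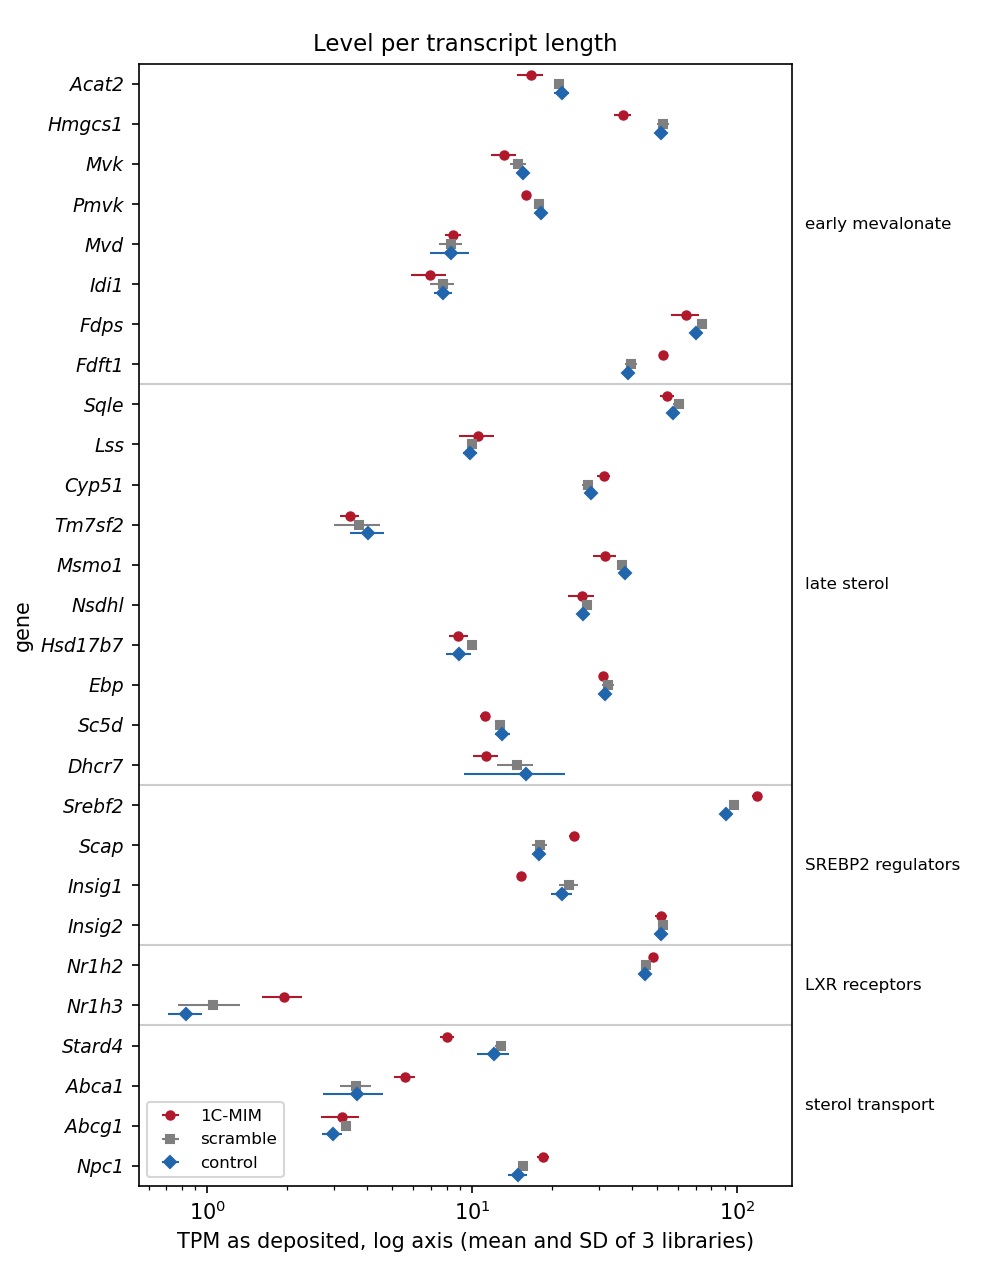
Mean deposited TPM with SD over 3 libraries on a log axis, for the 28 genes grouped by role, in 1C-MIM, scramble and control fibres. Srebf2 lies highest, at 119 TPM in 1C-MIM fibres, and Nr1h3 lowest, at 1.94 TPM in 1C-MIM fibres.

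Each library held 29.0 to 33.2 M counts with 1 transcript per gene. Muscle genes were abundant, and the macrophage markers Ptprc, Adgre1 and Lyz2 and the fat cell markers Adipoq, Plin1, Cidec and Fabp4 were below 1 CPM in every library. Of the other markers on these lists, Cebpa was at 66.9 to 85.1 CPM, Pparg at 6.29 to 8.23 CPM, Cd68 at 1.38 to 2.64 CPM and Csf1r at 0.689 to 1.44 CPM over the 9 libraries. At an adjusted p below 0.05, 47.3% of all tested genes were called in 1C-MIM against control fibres, 22.9% higher and 24.3% lower. Against scramble fibres 46% were called. Markers of dividing cells moved with the 1C-MIM medium. All 6 of them (Mki67, Top2a, Ccnb1, Cdk1, Bub1 and Plk1) fell against both other groups, and their summed level was 582.3 to 724.7 CPM (counts scaled to a common library size) in 1C-MIM, 1190.1 to 1417.9 CPM in scramble and 1105.1 to 1454.5 CPM in control fibres. Of 8 fibre markers 3 rose (Myog, Mymx and Ckm) and none fell, with summed levels of 7290.7 to 9018.6 CPM in 1C-MIM, 5217.0 to 7272.8 CPM in scramble and 4482.7 to 7965.4 CPM in control fibres. That is 37.5% called, below the share of all tested genes, and the difference was not tested. Of 5 reserve cell and progenitor markers 1 rose and 3 fell against control, with summed levels of 249.4 to 255.4 CPM in 1C-MIM, 333.4 to 366.2 CPM in scramble and 319.6 to 399.6 CPM in control fibres. Of the osteoblast markers Runx2 was at 63.1 to 68.2 CPM in all libraries, the rest were below 1 CPM, and Sp7 and Bglap fell against control, with summed levels of 63.3 to 65.8 CPM in 1C-MIM, 64.3 to 67.7 CPM in scramble and 64.9 to 69.0 CPM in control fibres. None of the 2 fat cell and 2 macrophage markers that passed the filter was called. The part of these markers in the results on sterol genes was not tested. Scramble replicate 1 and control replicate 1 stood apart from their groups, with the highest fibre and lowest dividing-cell sums. Counts called in 1C-MIM against control fibres are therefore also given without the 3 libraries numbered 1 wherever they change. This was done for the sterol genes and the further pathway lists below. The marker counts are given with all libraries only, and may differ without those numbered 1. Over all tested genes, more were called without the libraries numbered 1.

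In 1C-MIM against control fibres, sterol genes moved in both directions. Hmgcs1 and Acat2 at the head of the pathway, the feedback gene Insig1 and the sterol carrier Stard4 fell. The regulators Srebf2 and Scap, the squalene synthase gene Fdft1, the receptor Nr1h3, the exporter Abca1 and the lysosomal transporter Npc1 rose. Of the 28 genes, 6 were called higher and 8 lower at an adjusted p below 0.05, which is 50% of them. Over all tested genes 47.3% were called in this comparison, 22.9% higher and 24.3% lower, so the share among the sterol genes lies near the background and is no result about them as a list. The 2 groups did not overlap for 15 of the 28, where 55.5% of all tested genes did not overlap. Their median log2 fold change was -0.04, against -0.01 over all tested genes. Without the 3 libraries numbered 1 the count was 6 higher and 13 lower, and without 1C-MIM replicate 3 it was 6 higher and 5 lower. The number called over all tested genes also rose in the first of these fits and fell in the second. The 47.3% is the share with all libraries, and these counts are not to be read against it. In bulk RNA, a lower level can come from fewer cells of a type or from less RNA per cell, and these cannot be told apart here.

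**Figure D2:**
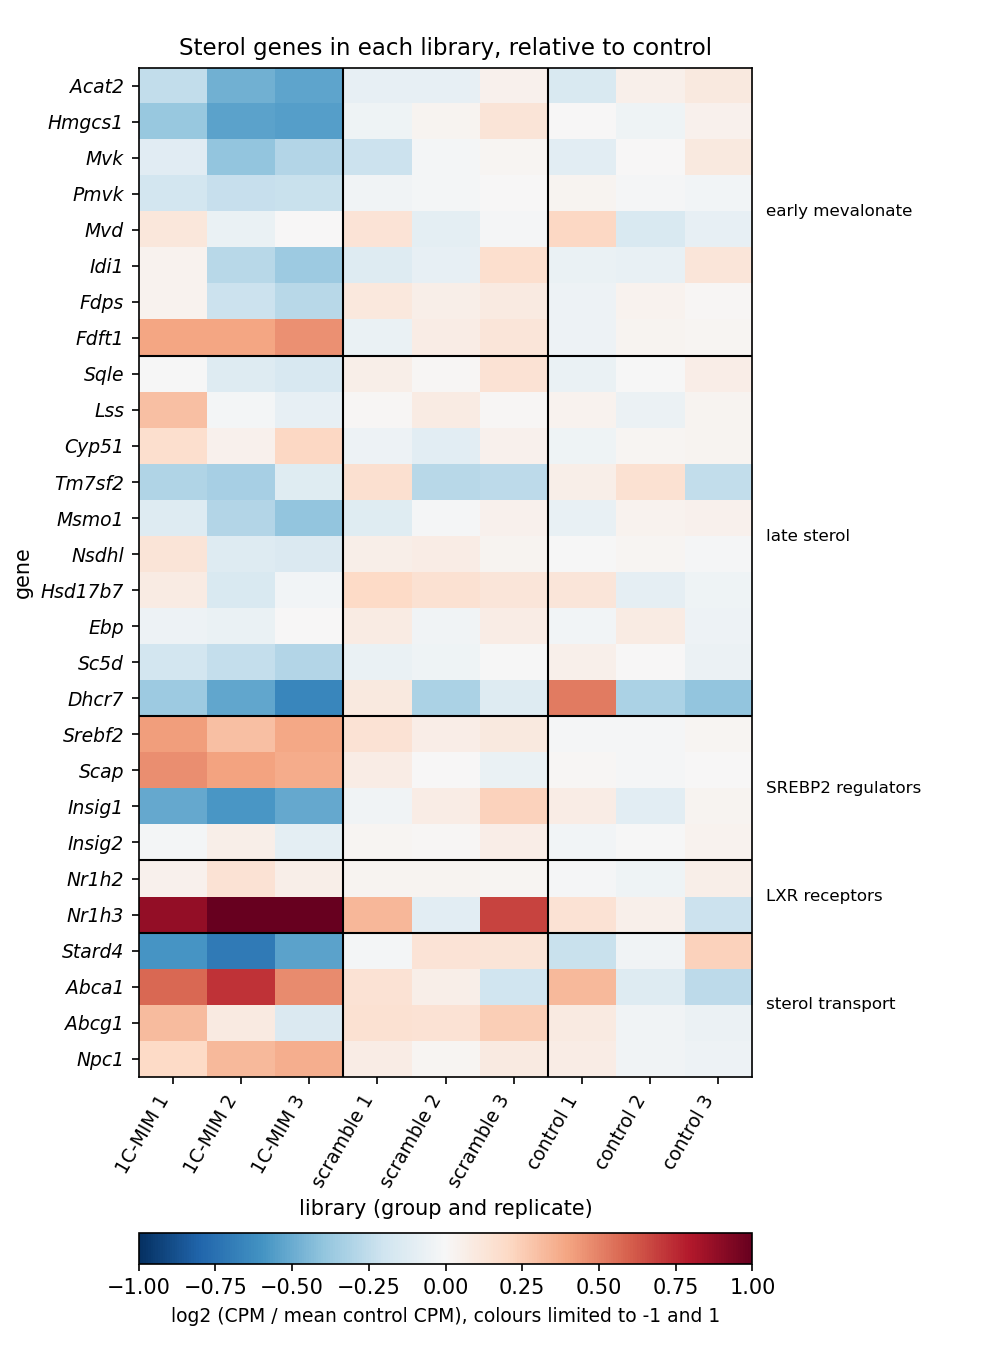
Level of the 28 genes in each of the 9 libraries as log2 of CPM over the mean control CPM, with colours limited to -1 and 1. Hmgcs1, Insig1 and Stard4 are low and Fdft1, Srebf2, Scap, Nr1h3, Abca1 and Npc1 are high in all 3 libraries of the 1C-MIM group.

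Of the 8 early mevalonate genes, 4 fell and 1 rose in 1C-MIM against control fibres, with a median log2 fold change of -0.20. Over all tested genes 47.3% were called either way. The falls numbered 6, with a median of -0.31, without the 3 libraries numbered 1, where more were called over all tested genes as well. The falls numbered 6 without 1C-MIM replicate 1 and 2 without 1C-MIM replicate 2 or 1C-MIM replicate 3. Over all tested genes, fewer were called in each of these single-library removals. Hmgcs1 encodes the cytosolic HMG-CoA synthase, which condenses acetyl-CoA with acetoacetyl-CoA. It stood at 101.5, 91.1 and 90.1 CPM in 1C-MIM fibres, 128.3, 134.7 and 145.0 CPM in scramble fibres and 132.7, 128.1 and 136.2 CPM in control fibres. All 3 libraries of the 1C-MIM group lay below all 6 others, with a log2 fold change of -0.49 ± 0.06 (SE, adjusted p = 8.96e-05) against control, or 0.712 times its level, and of -0.53 ± 0.06 (adjusted p = 6e-05) against scramble. Its exons share up to 458 bases with an antisense transcript, whose part in the counts was not tested. Of the windows searched above, that of Hmgcs1 was the one with an exact match to the sterol element core. Elements that differ from those letters were not searched.

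Acat2 encodes the cytosolic thiolase that makes acetoacetyl-CoA. Its level was 27.5, 23.4 and 22.6 CPM in 1C-MIM fibres, 30.8, 30.8 and 33.5 CPM in scramble fibres and 29.3, 33.7 and 34.8 CPM in control fibres. The 1C-MIM group lay below both others without overlap, by -0.41 ± 0.09 (adjusted p = 0.00285) against control and -0.37 ± 0.09 (adjusted p = 0.00549) against scramble on the log2 scale. Acat2 shares 39.1% of its 50-base stretches with the near-copy Acat3, so the counting could split reads between them. Acat3 itself averaged 83.0 ± 3.60 CPM in 1C-MIM, 86.1 ± 4.97 CPM in scramble and 85.1 ± 10.3 CPM in control fibres and was not called.

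Fdft1 encodes squalene synthase, which commits farnesyl diphosphate to sterols, and it moved opposite to Hmgcs1 and Acat2. It stood at 104.8, 104.9 and 109.6 CPM in 1C-MIM fibres, 76.5, 84.3 and 86.9 CPM in scramble fibres and 77.1, 81.6 and 81.1 CPM in control fibres. The 1C-MIM libraries lay above all 6 others, with a log2 fold change of 0.41 ± 0.05 (adjusted p = 0.000127) against control and 0.37 ± 0.05 (adjusted p = 0.000298) against scramble. Its exons share up to 774 bases with those of Ctsb, a lysosomal protease gene on the opposite strand. Ctsb averaged 1175.2 ± 46.8 CPM in 1C-MIM, 806.8 ± 2.29 CPM in scramble and 792.4 ± 18.9 CPM in control fibres, a log2 fold change of 0.57 ± 0.05 (adjusted p = 1.35e-05) against control. No source used here says whether the counting was stranded, so the rise of Fdft1 is uncertain and the part of Ctsb reads in it was not tested.

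Mvk and Pmvk, the kinases that phosphorylate mevalonate and its monophosphate, showed smaller falls. The log2 fold change against control was -0.26 ± 0.10 (adjusted p = 0.0411) for Mvk and -0.21 ± 0.06 (adjusted p = 0.0175) for Pmvk. Both calls depended on single libraries. Mvk lost its call without control replicate 2 (adjusted p = 0.0768), control replicate 3 (0.138), 1C-MIM replicate 2 (0.155) or 1C-MIM replicate 3 (0.110), and in a fit of the compared groups alone (0.0517). Without the 3 libraries numbered 1 its log2 fold change was -0.40. Pmvk lost its call without 1C-MIM replicate 2 (adjusted p = 0.0553) or 1C-MIM replicate 3 (0.0508). The other 3 early genes were not called, at log2 fold changes of 0.02 ± 0.11 for Mvd, -0.19 ± 0.12 for Idi1 and -0.15 ± 0.07 for Fdps, whose products turn mevalonate diphosphate into the isoprenoid units and join them.

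Of the 10 late sterol genes, 2 fell and none rose in 1C-MIM against control fibres, with a median log2 fold change of -0.07. That is 20% called, below the 47.3% over all tested genes, and the difference was not tested. Without the 3 libraries numbered 1 there were 5 falls and a median of -0.16, and more were called over all tested genes as well. Without 1C-MIM replicate 1 there were 2 falls and a median of -0.14, without 1C-MIM replicate 3 there was 1 fall, and without 1C-MIM replicate 2 there were 2 falls and 1 rise. Fewer were called over all tested genes in each of these single-library removals. Msmo1 encodes the methyl sterol oxidase that starts removal of methyl groups at carbon 4. It averaged 41.2 ± 3.81 CPM in 1C-MIM, 48.6 ± 2.82 CPM in scramble and 49.6 ± 2.16 CPM in control fibres, a log2 fold change of -0.27 ± 0.07 against control (adjusted p = 0.0106). Its call was lost narrowly without 1C-MIM replicate 3 (adjusted p = 0.0501). Sc5d, the desaturase of the last steps, averaged 17.9 ± 0.736 CPM in 1C-MIM, 20.5 ± 0.408 CPM in scramble and 21.1 ± 0.775 CPM in control fibres, a log2 fold change of -0.24 ± 0.06 against control (adjusted p = 0.00832).

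The other 8 late genes were not called against control, and their log2 fold changes ran from -0.51 to 0.14. Among them were Sqle, the squalene epoxidase that is a rate-controlling step, at -0.10 ± 0.06, the cyclase gene Lss at 0.08 ± 0.09 and the demethylase gene Cyp51 at 0.14 ± 0.06 (adjusted p = 0.0565). The 95% interval for Sqle, from -0.22 to 0.03, leaves room for a small fall. Dhcr7, which encodes the reductase that ends a route to cholesterol, had the widest spread between control libraries. It stood at 25.0, 22.4 and 20.4 CPM in 1C-MIM fibres, 34.3, 25.8 and 29.3 CPM in scramble fibres and 46, 25.8 and 24.4 CPM in control fibres. Control replicate 1 lay above all other libraries, with scramble replicate 1 next, and the log2 fold change of -0.51 ± 0.24 (adjusted p = 0.126) became -0.16 without it.

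**Figure D3:**
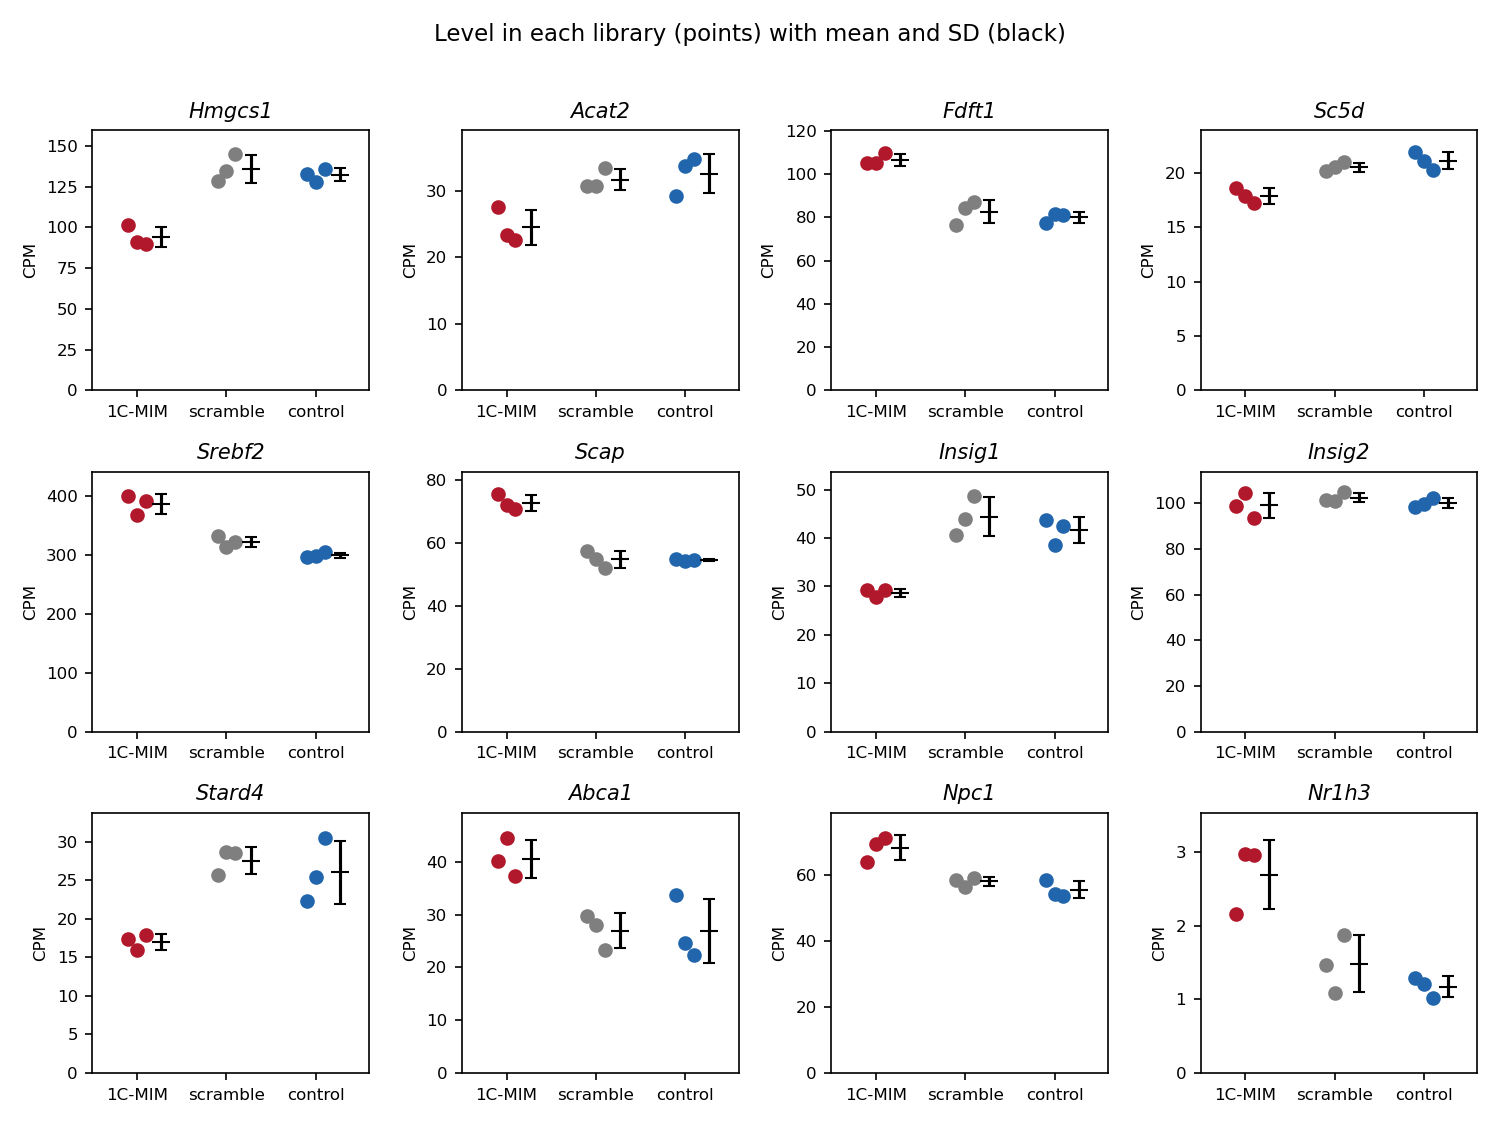
CPM in each library, with mean and SD, of 12 of the 28 genes, for 1C-MIM, scramble and control fibres from left to right. The libraries of the 1C-MIM group lie clear of the other 6 for Hmgcs1, Fdft1, Srebf2, Scap, Insig1 and Stard4, while Insig2 overlaps.

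Among the 4 regulators, 2 rose, 1 fell and 1 was not called in 1C-MIM against control fibres. That is 75% called, where 47.3% of all tested genes were called, and the difference was not tested. Srebf2 stood at 400.4, 368.1 and 391.1 CPM in 1C-MIM fibres, 331.0, 312.9 and 320.9 CPM in scramble fibres and 296.6, 297.3 and 303.9 CPM in control fibres. The 3 groups did not overlap, and the scramble libraries lay between the other groups. The log2 fold change was 0.37 ± 0.05 (adjusted p = 0.000146) against control and 0.27 ± 0.05 (adjusted p = 0.00132) against scramble.

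Scap, which encodes the sterol sensor that escorts SREBP2, also rose. It stood at 75.5, 72.1 and 70.8 CPM in 1C-MIM fibres, 57.5, 54.8 and 52.1 CPM in scramble fibres and 55.0, 54.2 and 54.6 CPM in control fibres. Its lowest 1C-MIM library was well above the highest of the other 6, with a log2 fold change of 0.42 ± 0.05 (adjusted p = 7.57e-05) against control and 0.41 ± 0.05 (adjusted p = 8.85e-05) against scramble. Its exons share up to 327 bases with an unclassified transcript on the opposite strand, whose part in the counts was not tested.

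Insig1 encodes a retention factor for SCAP and is itself a well known SREBP target. It stood at 29.2, 27.8 and 29.2 CPM in 1C-MIM fibres, 40.6, 43.9 and 48.7 CPM in scramble fibres and 43.7, 38.6 and 42.4 CPM in control fibres. The 1C-MIM libraries lay close together and below all 6 others, by -0.53 ± 0.07 (adjusted p = 0.00017) against control and -0.63 ± 0.07 (adjusted p = 6.54e-05) against scramble on the log2 scale. Insig2, its relative, stood at 99.0, 104.5 and 93.7 CPM in 1C-MIM fibres, 101.4, 101.1 and 104.9 CPM in scramble fibres and 98.2, 99.7 and 102.4 CPM in control fibres. The 3 groups overlapped. Its log2 fold change against control was -0.01 ± 0.05 (adjusted p = 0.826), with a 95% interval of -0.12 to 0.09. The difference between the changes of Insig1 and Insig2 was not tested.

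Of the 2 LXR genes, the scarce one rose, in a comparison with control where 47.3% of all tested genes were called. Nr1h3 stood at 2.15, 2.97 and 2.96 CPM in 1C-MIM fibres, 1.47, 1.09 and 1.87 CPM in scramble fibres and 1.29, 1.21 and 1.01 CPM in control fibres. The 1C-MIM group overlapped neither other group, although the counts behind these values were only 32 to 88 per library. The log2 fold change was 1.20 ± 0.23 (adjusted p = 0.00129) against control and 0.87 ± 0.22 (adjusted p = 0.0082) against scramble. Nr1h2 averaged 69.0 ± 2.6 CPM in 1C-MIM, 66.3 ± 0.143 CPM in scramble and 65.2 ± 2.43 CPM in control fibres, and its log2 fold change against control of 0.08 ± 0.05 was not called (adjusted p = 0.183).

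Of the 4 transport genes, Stard4 fell and Abca1 and Npc1 rose in 1C-MIM against control fibres. That is 75% called, where 47.3% of all tested genes were called, and the difference was not tested. Stard4 encodes a soluble protein that carries cholesterol between membranes. It stood at 17.3, 15.9 and 17.9 CPM in 1C-MIM fibres, 25.6, 28.6 and 28.5 CPM in scramble fibres and 22.3, 25.4 and 30.5 CPM in control fibres. Even the lowest control library was above the highest 1C-MIM library. On the log2 scale the fold change was -0.61 ± 0.11 (adjusted p = 0.000803) against control and -0.69 ± 0.11 (adjusted p = 0.000386) against scramble.

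Abca1, the exporter that loads cholesterol onto apolipoprotein A-I and a textbook LXR target, stood at 40.1, 44.5 and 37.3 CPM in 1C-MIM fibres, 29.7, 28 and 23.4 CPM in scramble fibres and 33.7, 24.6 and 22.4 CPM in control fibres. Control replicate 1 came closest to the 1C-MIM group without reaching it. The log2 fold change was 0.60 ± 0.15 (adjusted p = 0.00869) against control and 0.59 ± 0.15 (adjusted p = 0.00973) against scramble. Abcg1, a related exporter and likewise a known LXR target, was not called, at 0.09 ± 0.11 against control (adjusted p = 0.502) and -0.09 ± 0.11 against scramble. Its libraries ranged from 11.2 to 15.4 CPM in the 1C-MIM group, 13.7 to 14.7 CPM in the scramble group and 11.9 to 13.2 CPM in the control group, so the 1C-MIM range spans both others.

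Npc1, which moves cholesterol out of lysosomes, stood at 64.1, 69.6 and 71.5 CPM in 1C-MIM fibres, 58.7, 56.6 and 59.3 CPM in scramble fibres and 58.7, 54.5 and 53.8 CPM in control fibres. The 1C-MIM libraries were the 3 highest of the 9, with a log2 fold change of 0.30 ± 0.06 (adjusted p = 0.00136) against control and 0.23 ± 0.06 (adjusted p = 0.00602) against scramble. Npc1 shares up to 319 exon bases with Rmc1 on the opposite strand. The level of Rmc1 is not given here, and the part of its reads in the rise of Npc1 was not tested.

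Against scramble fibres, 7 of the 28 genes were called higher and 9 lower in 1C-MIM fibres, which is 57.1%, where the share of all tested genes was 46%, made up of 22.9% higher and 23.2% lower. The 2 groups did not overlap for 19 of the 28, against 59.5% of all tested genes. Their median log2 fold change was -0.12, against 0 over all tested genes. Both comparisons use the same 1C-MIM libraries, so they are not independent. The 10 genes Hmgcs1, Acat2, Fdft1, Srebf2, Scap, Insig1, Nr1h3, Stard4, Abca1 and Npc1 were called in both comparisons and kept their calls when any single library was left out. Fdps (-0.23 ± 0.07, adjusted p = 0.0208), Sqle (-0.17 ± 0.06, adjusted p = 0.0336) and Cyp51 (0.18 ± 0.06, adjusted p = 0.0217) were called against scramble and not against control. Mvk, at -0.19 ± 0.10 (adjusted p = 0.123), was called against control and not against scramble. Fdps shares 26.2% of its 50-base stretches with other annotated genes and up to 197 exon bases with Gm43738 on the same strand, so its counts are uncertain too.

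The smaller calls against scramble were fragile. Pmvk, Msmo1 and Sc5d each lost the call without 1C-MIM replicate 2, 1C-MIM replicate 3, scramble replicate 2 or scramble replicate 3 (adjusted p = 0.0545 to 0.0834). Fdps and Sqle lost it without 1C-MIM replicate 2, 1C-MIM replicate 3, scramble replicate 1 or scramble replicate 3 (adjusted p = 0.0541 to 0.133). Cyp51 lost it without 1C-MIM replicate 1, 1C-MIM replicate 3, scramble replicate 1 or scramble replicate 2 (adjusted p = 0.0576 to 0.0925), and its exons share up to 166 bases with Akap9 on the opposite strand. Akap9 was itself higher, by 0.31 ± 0.10 on the log2 scale against scramble (adjusted p = 0.0272), and the part of its reads in the rise of Cyp51 was not tested. The count of genes called lower dropped to 4 without 1C-MIM replicate 2, without 1C-MIM replicate 3 or without scramble replicate 3. It was 13 without 1C-MIM replicate 1 and 14 without the 3 libraries numbered 1. The count called in either direction was 10 without 1C-MIM replicate 3. Over all tested genes, the 46% called is the share with all libraries, and these counts are not to be read against it.

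**Figure D4:**
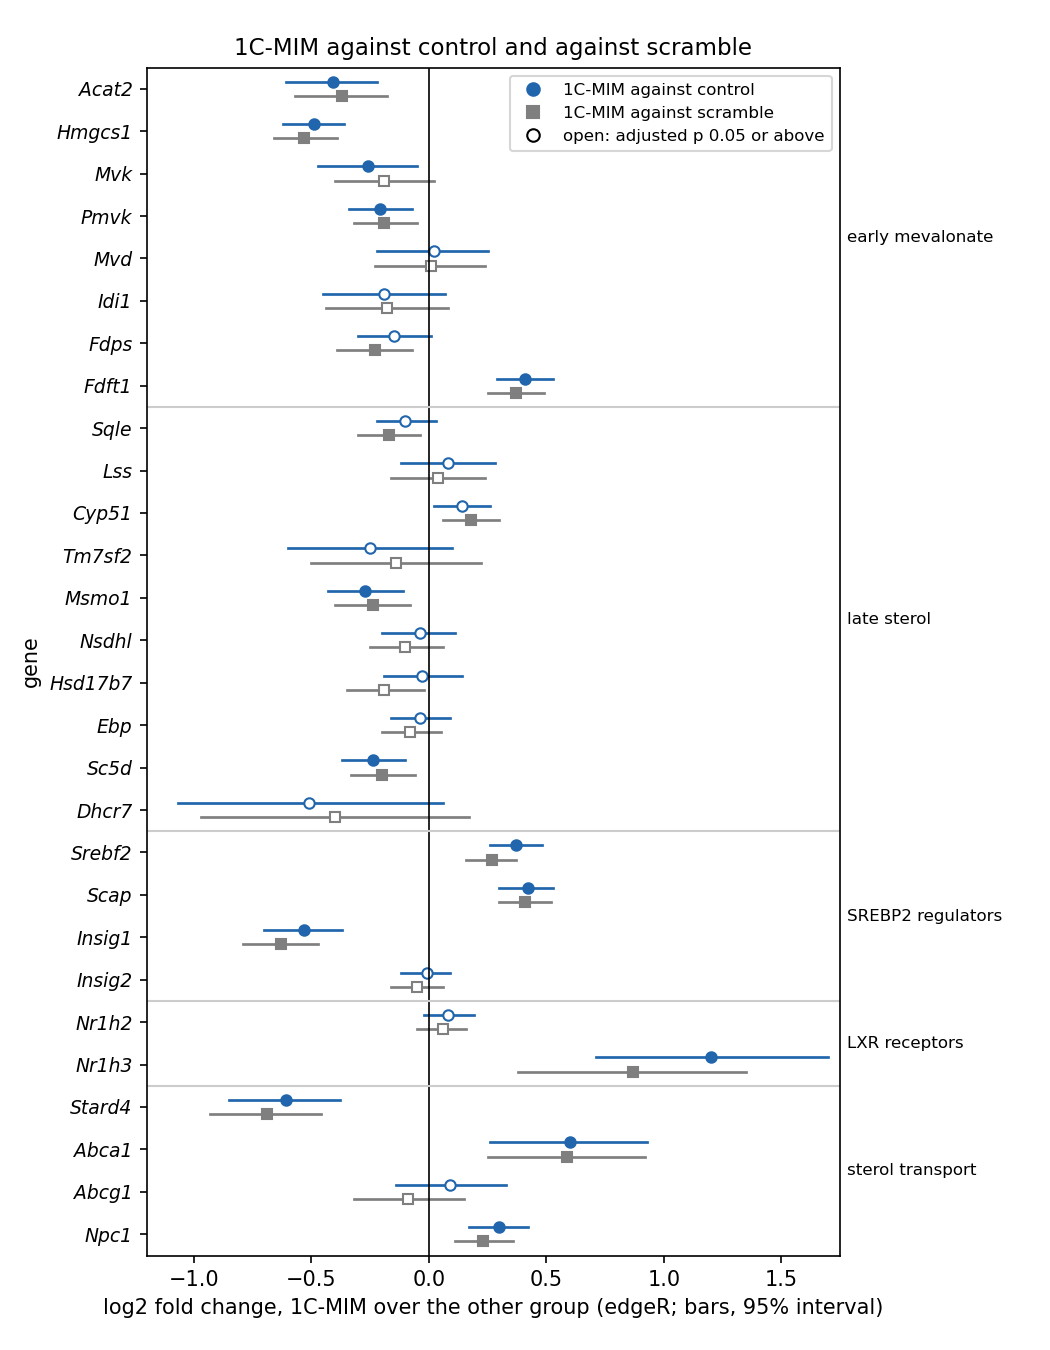
Log2 fold change with 95% interval from the edgeR fit for the 28 genes, 1C-MIM over control (circles) and 1C-MIM over scramble (squares), with open symbols for an adjusted p of 0.05 or above. Insig1, at -0.53 against control, and Stard4, at -0.61, lie on the low side, and Nr1h3, at 1.20, lies highest.

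Within the 1C-MIM group, replicate 1 held the highest level of most synthesis enzymes. Of the 18 enzyme genes, 14 were highest in this library among the 3 of its group, with a median log2 difference of 0.16 to the other two libraries, where the same median over all genes was 0.01. The summed level of the 18 enzymes was 815.6, 737.3 and 745.7 CPM in 1C-MIM fibres, 821.9, 820.3 and 867.4 CPM in scramble fibres and 819.8, 816.1 and 828.4 CPM in control fibres. The 3 sums of the 1C-MIM group were the lowest of the 9, with replicate 1 just under control replicate 2. Among the 10 regulators, receptors and transport genes, 3 were highest in 1C-MIM replicate 1.

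Scramble and control fibres did not differ detectably in these genes. None of the 28 was called, and 0 had an unadjusted p below 0.05, where edgeR called 0% of all tested genes, 3.44% had an unadjusted p below 0.05 and DESeq2 called 30 genes. The median log2 fold change of the 28 was 0.04, within a range of -0.11 to 0.34. The groups did not overlap for 5 of the 28 genes, all higher in scramble, where 9.09% of all tested genes did not overlap and 4.83% were higher in scramble in this way. These were Fdps, Nsdhl, Hsd17b7, Srebf2 and Abcg1. Srebf2 differed by 0.10 ± 0.05, with a 95% interval of -0.01 to 0.21, and Hsd17b7, whose product reduces a keto group of the sterol ring, by 0.16 ± 0.07. Nr1h3 had a wide interval, from -0.19 to 0.86 around a log2 fold change of 0.34.

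Further genes around the pathway were taken as 3 lists. Among 14 genes of the isoprenoid branches, 5 rose and 3 fell in 1C-MIM against control fibres, with a median log2 fold change of 0.02. That is 57.1% called, near the 47.3% over all tested genes. The subunits of the enzyme that makes the coenzyme Q tail moved in opposite directions. Pdss2 rose by 0.41 ± 0.09 on the log2 scale (adjusted p = 0.00256), and Pdss1 fell by 0.44 ± 0.13 (adjusted p = 0.0169). Both subunits of protein farnesyltransferase fell, Fntb at -0.37 ± 0.06 (adjusted p = 0.000516) and Fnta at -0.18 ± 0.04 (adjusted p = 0.00642). The count of rises was 3 without control replicate 1, control replicate 2, 1C-MIM replicate 2 or 1C-MIM replicate 3, and it was 7 without the 3 libraries numbered 1.

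Among 12 genes of SREBP activation and sterol-regulated degradation, 3 rose and none fell, with a median of 0.10. That is 25% called, below the 47.3% over all tested genes, and the difference was not tested. Mbtps1, which encodes the Golgi protease that makes the first cut in SREBPs, averaged 249.5 ± 2.69 CPM in 1C-MIM, 208.6 ± 3.11 CPM in scramble and 208.0 ± 6.72 CPM in control fibres, a log2 fold change of 0.26 ± 0.04 against control (adjusted p = 0.000536). Erlin2, part of the degradation machinery of the endoplasmic reticulum, rose by 0.15 ± 0.05 on the log2 scale (adjusted p = 0.0295), a call that was lost without control replicate 3 (0.0861), 1C-MIM replicate 1 (0.0801) or 1C-MIM replicate 3 (0.0750). Without the 3 libraries numbered 1, 5 of the 12 rose and 1 fell.

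Among 15 genes of sterol uptake, storage and transport, 4 rose and 4 fell, with a median of 0.08. That is 53.3% called, near the 47.3% over all tested genes. Without the 3 libraries numbered 1, 6 rose and 4 fell. Lrp1, a large endocytic receptor for lipoproteins, averaged 4545.0 ± 344.3 CPM in 1C-MIM, 2573.3 ± 74.4 CPM in scramble and 2295.7 ± 10.2 CPM in control fibres, a log2 fold change of 0.99 ± 0.07 against control (adjusted p = 2.34e-06). Soat1, the enzyme that esterifies cholesterol for storage, averaged 173.1 ± 18.1 CPM in 1C-MIM, 94.8 ± 4.23 CPM in scramble and 92.7 ± 2.42 CPM in control fibres, a log2 fold change of 0.90 ± 0.07 against control (adjusted p = 5.03e-06). Gramd1a, which carries cholesterol from the plasma membrane to the endoplasmic reticulum, rose by 0.54 ± 0.07 on the log2 scale (adjusted p = 0.000128). Vldlr, a lipoprotein receptor, fell by 0.39 ± 0.07 on the log2 scale (adjusted p = 0.00116). For scale, the log2 fold changes of the 18 synthesis enzymes ran from -0.51 to 0.41 in the same comparison.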

How the data were processed

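RNA sequencing of C2C12 fibres gave 9 libraries, 3 per group. The labels' protocols give column-purified total RNA and a SMARTer mRNA kit for the libraries. The submitters' processing notes name the build GRCm39 and, without roles, the aligner STAR, the quantifiers Salmon 1.5.2, StringTie 2.2.1 and featureCounts (Subread 2.0.1), the trimmer Trim Galore 0.6.7, and DESeq2 1.28.0 among others. The tool that counted, and whether it used strand, is not given in these sources. Per the file headers, 33984 RefSeq transcripts each have 3 deposited values, namely counts, FPKM and TPM. The authors' counts are whole and not normalized. The authors' FPKM served only to recover transcript lengths. The authors' TPM served to compare levels between genes.

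Each of 24063 symbols was represented by its transcript with the highest mean count, since 5261 symbols had several and shared reads can be counted under each. Totals were 29.0 to 33.2 M per library. Genes were tested with edgeR 4.0.16 (quasi-likelihood, robust, TMM, filterByExpr, all 9 libraries in 1 fit; limma 3.58.1, R 4.3.3), with Benjamini-Hochberg adjustment over 14006 genes, two-sided, and called at an adjusted p below 0.05. CPM refer to TMM-normalized library sizes. Values are mean ± SD, and log2 fold changes are ± SE from the fit. The script was tested on simulated counts. DESeq2 1.42.0, limma-voom, other scalings, filters, thresholds and transcript choices, a replicate block and the removal of libraries were alternatives. Shared exons came from GENCODE M21 (GRCm38), used for names and overlap lengths only, and shared sequence from its transcripts in 50-base stretches. Chi-square values per degree of freedom between libraries within a group were 3.30 to 47.86, above sampling noise, and all 9 were kept as separate samples. Such values do not show that the libraries came from separate cultures. The highest, 43.11 and 47.86, were those of control replicate 1 with the others of its group.

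Libraries of the same number deviated together between scramble and control (r = 0.481, 0.214 and 0.168 for numbers 1, 2 and 3). Across numbers, r was 0.242 for scramble replicate 2 with control replicate 3 and 0.123 for scramble replicate 3 with control replicate 2. Only number 1 therefore stood out as a pair of those 2 groups, and numbers 2 and 3 could not be told apart. This pairing rests on the data and not on the labels. With the replicate block, which was fitted to all 9 libraries, 0 of the 28 genes were called in scramble against control, as without it.

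The members and gene lists were chosen with earlier results of these data known. Values in every library are given for members called with an absolute log2 fold change of at least 0.3 and for all regulators. Dhcr7 was added after its values were seen. Of each other list, up to 4 genes with the smallest p against control are named. Of these, 2 are not reported here. Pdss1 was added after its value was seen, and Ctsb, Acat3, Akap9, Rmc1 and Gm43738 for shared sequence after values were seen.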

Additional observations from a re-analysis of the deposited data

How the results depend on the processing

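Over the 30 called changes of single genes in both 1C-MIM comparisons, 497 of 540 alternative values kept their direction and call and 43 kept only the direction. In 1C-MIM against control, the count of sterol genes called lower, 8, became 5 at an adjusted p below 0.01 and 13 without the libraries numbered 1, and ranged from 5 to 10 when single libraries were left out. In 1C-MIM against scramble, the 16 sterol genes called became 10 at an adjusted p below 0.01 and ranged from 10 to 19 with single libraries left out. The 9 called lower there became 4 at an adjusted p below 0.01 and 14 without the libraries numbered 1, and ranged from 4 to 13. These counts against scramble are given without the matching number over all tested genes, and say nothing about sterol genes as a list. The 0 genes called in scramble against control became 30 with DESeq2, 96 without the libraries numbered 1 and 0 to 3 with single libraries left out. In the isoprenoid branches the 5 rises became 3 with library size alone, in a fit of the compared groups alone and at an adjusted p below 0.01, and ranged from 3 to 5 with single libraries left out. In SREBP activation and degradation, the 3 rises became 5 without the libraries numbered 1, and the 0 falls became 2 with library size alone and 1 without the libraries numbered 1. The cause was not tested.

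The sign turned in genes that were not called. Against control, Mvd (0.02) was at -0.01 with upper-quartile factors, -0.03 with library size alone and -0.06 to 0.13 with single libraries left out. Leaving out single libraries gave -0.05 to 0.15 for Lss (0.08; -0.03 without the libraries numbered 1), -0.14 to 0.01 for Nsdhl (-0.04), -0.08 to 0.04 for Hsd17b7 (-0.03), -0.05 to 0.02 for Insig2 (-0.01) and -0.03 to 0.20 for Abcg1 (0.09). Against scramble, Mvd (0.01) was at -0.01 with upper-quartile factors, -0.03 with library size alone and -0.04 to 0.07 with single libraries left out. There Lss (0.04) ranged from -0.08 to 0.12, Tm7sf2 (-0.14) from -0.22 to 0.02 and Abcg1 (-0.09) from -0.21 to 0.03, and without the libraries numbered 1 Lss was at -0.10 and Tm7sf2 at 0.05.

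With the replicate number as a block, 16 sterol genes (7 higher, 9 lower) of 7397 genes were called against control and 17 (7 higher, 10 lower) of 7309 against scramble. Same-numbered libraries deviated together only weakly there (r = 0.194, 0.084 and 0.104 with control, and 0.153, 0.035 and 0.028 with scramble), so the block was not taken as a pairing. Depth limits Nr1h3, with 32 to 88 counts per library. The labels name no culture or batch, and Fdft1, Cyp51, Npc1, Hmgcs1, Scap, Idi1 and Lss share exon bases with genes on the opposite strand.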

Other observations

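Tm7sf2, a sterol reductase gene of the late steps with 3.42 to 3.97 CPM in 1C-MIM, 3.55 to 4.82 CPM in scramble and 3.63 to 4.80 CPM in control fibres, shares up to 532 exon bases on the same strand with its neighbour Vps51. Vps51, which encodes a subunit of a membrane-tethering complex, rose by 0.53 ± 0.06 on the log2 scale in 1C-MIM against control fibres (adjusted p = 3.12e-05), while Tm7sf2 stood at -0.25 ± 0.16 (adjusted p = 0.227). Srebf1, which encodes the SREBP that mainly drives fatty acid synthesis, averaged 91.9 ± 9.23 CPM in 1C-MIM, 96.8 ± 0.930 CPM in scramble and 93.9 ± 2.58 CPM in control fibres and was not called, at -0.03 ± 0.06 against control (adjusted p = 0.717). Vps51 and Srebf1 were picked out after their values were seen.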
